A study of Homo sapiens with 18 samples.

Results

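DNA methylation in mammals is a cycle of writing, copying and erasing a methyl group on cytosine, mostly at CpG dinucleotides (a C followed by a G). DNMT3A and DNMT3B place new methyl groups, DNMT1 copies them onto the new strand after replication, and UHRF1 brings DNMT1 to half-methylated DNA. The 3 TET enzymes oxidise methylcytosine, and the glycosylase TDG cuts out the most oxidised bases so that repair can restore a plain cytosine. The 10 genes described here are these writers, their helpers and the erasers: DNMT1, UHRF1 and UHRF2, DNMT3A, DNMT3B and DNMT3L, TET1, TET2 and TET3, and TDG. They were taken by symbol from the 55766 rows of the gene count table, and all 10 had a row. The question asked of them is whether their own RNA, or the methylation signal over their own genes, differed in cells whose B2M promoter had been silenced by targeted methylation.

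The cells were K562, an established human erythroleukaemia line, with a B2M:tdTomato transgene (tdTomato is a red fluorescent protein, and B2M is the small subunit that MHC class I needs at the cell surface). All 3 groups share this line and transgene. The untreated group received no repressor. The TALE group and the dCas9 group, both labelled silenced, had received 3 plasmids at once, with a different artificial repressor on each, built on a TALE protein or on dCas9, programmable DNA-binding proteins aimed at the B2M promoter. The dCas9 group was also given a plasmid for the guide RNA. The labels call 1 repressor D3A-based, after DNMT3A, and DNMT3L is known as another part of the effectors used in this hit-and-run method, in which the plasmids are lost from the cells later. The time from treatment to collection, the way silenced cells were obtained and whether a group was 1 clone are not given in the sources used here. Each group had 3 RNA-seq and 3 MeDIP-seq libraries. MeDIP-seq sequences DNA captured with an antibody against methylcytosine, and gives an amount of captured DNA per region, not a methylation level per site.

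RNA totals ranged from 8460076 to 12050554 counts per library, and counts in the MeDIP regions from 2529729 to 4492751. The B2M_tomato row held 3115 to 4109 counts in untreated libraries and 128 to 205 in silenced ones, so each label went with the level of the silenced transgene. All 14 of the erythroleukaemia markers listed for K562 had a mean of at least 1 CPM (counts scaled to the same library size in every library) in each group, and their sum was 9130 to 9680 CPM in untreated, 7320 to 11300 in TALE and 7340 to 10800 in dCas9 libraries. Of the 4 B cell markers 0 reached 1 CPM. Of the 4 T cell markers 2 did, of the 3 monocyte markers 1 and of the 3 epithelial markers 2, at summed levels of 16.9 to 32.8, 14.6 to 26.9 and 139 to 184 CPM over the 9 libraries. The fibroblast markers summed to 5.19 to 10.3 CPM. The part of these other markers in the results was not tested. Nothing in the labels says that replicates were separate cultures, so p-values measure the spread between these samples, which may be technical. In such bulk samples, fewer cells that express a gene and less RNA per cell cannot be told apart.

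The promoters of these genes differ in how many CpG sites they offer to the enzymes, and 3 are shown to make that visible. Each line gives the 250 bases before the start of the main annotated transcript, 5′ to 3′ on the gene's strand, read from GRCh37 (hg19), the build of the files, with CpG in capitals. DNMT1 (chr19:10305630-10305879, minus strand) stands for the copying enzymes, and TET1 (chr10:70319844-70320093, plus strand) and TET3 (chr2:74211787-74212036, plus strand) have few and many CpG sites.
DNMT1: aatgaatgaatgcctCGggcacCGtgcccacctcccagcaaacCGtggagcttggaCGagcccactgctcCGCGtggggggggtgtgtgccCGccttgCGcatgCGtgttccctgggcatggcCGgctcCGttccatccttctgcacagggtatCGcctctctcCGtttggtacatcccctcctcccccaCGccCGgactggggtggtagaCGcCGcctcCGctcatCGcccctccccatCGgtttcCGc
TET1: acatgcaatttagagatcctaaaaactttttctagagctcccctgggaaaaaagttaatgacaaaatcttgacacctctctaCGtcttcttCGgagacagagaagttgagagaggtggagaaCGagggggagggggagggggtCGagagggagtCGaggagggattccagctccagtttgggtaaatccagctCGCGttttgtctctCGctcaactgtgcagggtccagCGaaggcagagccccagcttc
TET3: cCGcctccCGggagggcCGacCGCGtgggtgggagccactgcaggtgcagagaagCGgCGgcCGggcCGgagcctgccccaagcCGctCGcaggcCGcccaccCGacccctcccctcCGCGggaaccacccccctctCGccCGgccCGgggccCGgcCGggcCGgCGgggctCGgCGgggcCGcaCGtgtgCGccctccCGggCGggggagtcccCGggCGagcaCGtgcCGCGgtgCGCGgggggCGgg
These windows hold 21, 9 and 37 CpG sites. Over 300 bases around the start (250 before and 50 after), given here for 9 of the 10 members, TET1 had 3.33 CpG per 100 bases, TDG 7.33, UHRF2 8.67, DNMT1 and DNMT3B 10.0 each, TET2 11.7, UHRF1 12.0, TET3 15 and DNMT3A 15.3. The median of 20116 protein-coding genes was 7.67. Of these 9 members TET1 and TDG thus lay below that median and the other 7 above it.

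Per kb of the main annotated transcript, the 3 untreated libraries placed DNMT1, the copying methyltransferase, highest among the 10, at 48.3 ± 2.29 CPM per kb (mean ± SD, n = 3 here and in the next sentences). TDG followed at 31.1 ± 1.18, then TET1 at 17.5 ± 0.308 and DNMT3B at 17.3 ± 2.16. UHRF1 stood at 8.90 ± 0.949, TET2 at 7.41 ± 0.671, UHRF2 at 5.12 ± 0.752 and TET3 at 5.01 ± 0.504. The de novo methyltransferase DNMT3A was far lower, at 1.76 ± 0.0608. DNMT3L, a relative without catalytic activity that stimulates DNMT3A and DNMT3B and is best known from germ cells, was lowest at 0.122 ± 0.0582. Against the 11279 tested genes with a length (81.8% of 13786), whose median was 7.92 CPM per kb, DNMT1 stood at percentile 87.8, TDG at 81.7, TET1 at 70.1, UHRF1 at 53.2, TET3 at 38.8 and DNMT3A at 18.9. Neighbours in this order whose 3 libraries overlapped were TET1 and DNMT3B, UHRF1 and TET2, and UHRF2 and TET3, so their order is within the spread. The other 6 steps were larger than it, from 1.45-fold between TET2 and UHRF2 to 14.4-fold between DNMT3A and DNMT3L. Among the methyltransferases DNMT3B was thus the more abundant of the 2 active de novo enzymes in RNA, and TET1 the most abundant of the TET enzymes. The length of all annotated exons joined was also used, a choice made after seeing the data. The order then changed at the top to TDG (20.3), TET1 (17.5), DNMT1 (16.6) and DNMT3B (10.9 CPM per kb). It changed in the middle too, with UHRF1 at 6.74, TET3 at 4.67, TET2 at 4.31 and UHRF2 at 1.85. DNMT3A and DNMT3L stayed last at 1.20 and 0.0908.

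**Figure D1:**
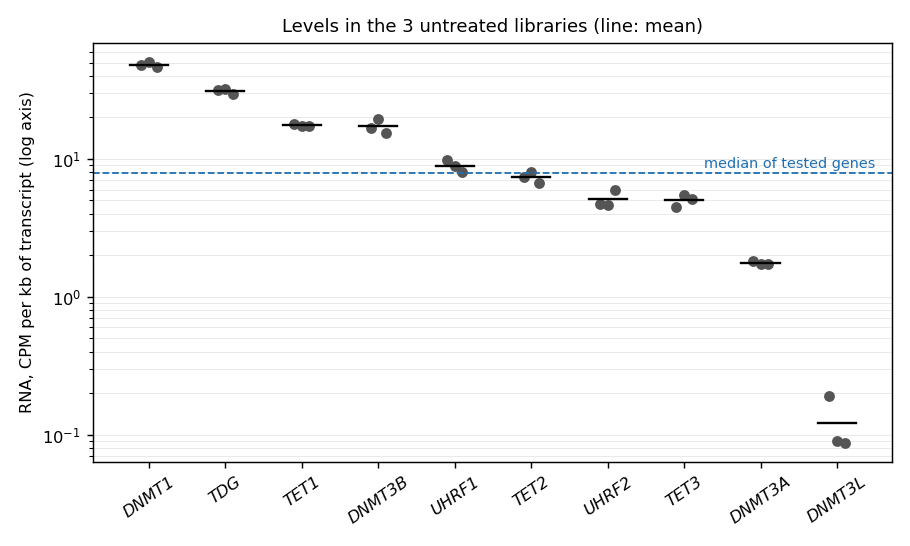
RNA levels of the 10 genes in the 3 untreated libraries, in CPM per kb of the main transcript on a log axis, with points for libraries and a line for their mean. DNMT1, TDG, TET1, DNMT3B and UHRF1 lie above the median of tested genes (dashed, 7.92) in all 3 libraries. UHRF2, TET3, DNMT3A and DNMT3L lie below it in all 3, and TET2 lies on both sides.

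None of the 9 genes that passed the filter on low counts was called in any comparison of RNA, at an adjusted p under 0.05 in edgeR's quasi-likelihood test with Benjamini-Hochberg adjustment over 13786 genes. The count was 0 of 9 for TALE against untreated, where 0.0218% of all tested genes were called, and 0 of 9 for dCas9 against untreated, where 0.0290% were. It was also 0 of 9 for TALE against dCas9 (0.0% of all genes) and for both silenced groups against untreated (0.0363%). At an unadjusted p under 0.05 the counts were 0, 1, 0 and 0 of 9, beside 7.15%, 5.93%, 6.38% and 6.35% of all genes. With DESeq2 the counts of members called were 0 of 9 in each of the 4 comparisons as well. A share of 0 of 9 is near such small backgrounds and says nothing particular about these genes. The median log2 fold change of the 9 was 0.03 for TALE and 0.06 for dCas9 against untreated, beside 0.00 for all tested genes in each. The 2 silenced groups were compared with the same untreated libraries.

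Of the copying machinery, DNMT1 had 253, 268 and 244 CPM in untreated libraries 1 to 3. It had 338, 283 and 229 CPM in TALE and 239, 341 and 269 in dCas9 libraries. TALE libraries 1 and 2 and dCas9 libraries 2 and 3 lay above every untreated library and the remaining 2 below, so the groups overlapped. The log2 fold change was 0.15 in each silenced group (SE 0.153), with adjusted p-values in edgeR of 0.867 for TALE and 0.974 for dCas9. Without TALE library 1 the TALE value was 0.00941 and without TALE library 3 it was 0.287. Without dCas9 library 2, whose share of mitochondrial counts was the highest at 14.0%, the dCas9 value was −0.01, and the part of that share in the value was not tested. DNMT1 shares its locus with S1PR2 and MIR4322, DNMT3L with DNMT3L-AS1 and TET2 with TET2-AS1, and whether counting used strand is not given in the sources used here.

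UHRF1, the reader of half-methylated DNA, had 38.5, 34.5 and 31.1 CPM in untreated libraries. Its TALE libraries had 53.7, 45.3 and 29.2 CPM and its dCas9 libraries 37.8, 37.3 and 40.45. TALE libraries 1 and 2 were thus the highest of all 9 and TALE library 3 the lowest. The log2 fold change for TALE against untreated was 0.30 (SE 0.168, 95% interval −0.06 to 0.65), the largest among the members, with an unadjusted p of 0.0938 and an adjusted p of 0.759 in edgeR. Without TALE library 1 it was 0.105. Without TALE library 3 it was 0.51 with an adjusted p of 0.0896, the smallest adjusted p of any member in RNA under all settings tried. For dCas9 it was 0.15 (SE 0.169, adjusted p 0.982). UHRF2, a close relative of UHRF1, ranged from 16.7 to 21.4 CPM in untreated, 17.9 to 19.1 in TALE and 18.1 to 19.8 in dCas9 libraries. All 6 silenced libraries lay inside the range of the untreated ones, and the log2 fold changes were 0.03 and 0.06.

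DNMT3A, the enzyme after which 1 of the repressors is named, had 17.2, 16.2 and 16.2 CPM in untreated libraries. It had 18.2, 19.2 and 14.7 CPM in TALE and 16.6, 18.3 and 21.2 in dCas9 libraries. The groups overlapped in both comparisons. The log2 fold change was 0.07 for TALE (SE 0.147, adjusted p in edgeR 0.946) and 0.18 for dCas9 (SE 0.148, adjusted p 0.965), and the 95% interval of the latter runs from 0.911-fold to 1.4-fold. DNMT3B had 73.1, 84.9 and 66.4 CPM in untreated, 102, 87.4 and 71.7 in TALE and 72.7, 84.8 and 91.2 in dCas9 libraries. TALE libraries 1 and 2 and dCas9 library 3 were above every untreated library. The log2 fold changes were 0.22 (SE 0.139, adjusted p 0.781) and 0.15 (SE 0.140, adjusted p 0.973), and the first was 0.092 without TALE library 1 and 0.34 without TALE library 3 (adjusted p 0.245).

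DNMT3L, the other methyltransferase-like part known from these effectors, was at the edge of detection and failed the filter, so it had no test. It had 3, 1 and 1 counts in untreated libraries, 0, 1 and 0 in TALE libraries and 0 in each dCas9 library. Summed over a group, this was 0.180 CPM in untreated cells (exact Poisson 95% interval 0.0584 to 0.420) and 0.0294 CPM in TALE cells (0.000745 to 0.164). The 0 counts in dCas9 cells had an upper Poisson limit of 0.121 CPM on the same scale, and 3 counts there would be 0.0982 CPM. The ratio of the 6 silenced libraries to the 3 untreated was 0.0862 (exact 95% interval 0.00182 to 0.771), which rests on 1 against 5 counts and covers counting error only. No silenced library had more DNMT3L counts than the lowest untreated library.

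The TET enzymes, the erasers by oxidation, gave groups that overlapped throughout. TET1 had 172, 166 and 168 CPM in untreated libraries, 171, 166 and 134 in TALE and 146, 205 and 169 in dCas9 libraries. The 3 untreated libraries were closer together than those of either silenced group. Its log2 fold change was −0.11 in TALE cells (SE 0.135, adjusted p in edgeR 0.894) and 0.04 in dCas9 cells (SE 0.135, adjusted p 0.996). TET2, a gene often mutated in blood cancers, ranged from 64.6 to 77.5 CPM in untreated, 64.65 to 75.9 in TALE and 63.75 to 80.02 in dCas9 libraries. Its log2 fold change was −0.02 in both comparisons. TET3 had 53.9, 66.0 and 61.4 CPM in untreated, 59.6, 61.9 and 41.1 in TALE and 45.2, 55.0 and 68.2 in dCas9 libraries, with log2 fold changes of −0.15 (SE 0.161) and −0.10 (SE 0.162).

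Among the tested members, TDG, the glycosylase that removes oxidised methylcytosine, was the only one whose groups did not overlap in a comparison of RNA. It had 100.4, 102 and 94.6 CPM in untreated libraries, 90.4, 97.5 and 98.3 in TALE and 94.0, 82.1 and 75.2 in dCas9 libraries. All 3 dCas9 libraries were below all 3 untreated libraries, a pattern that 5.97% of all tested genes shared. The highest dCas9 library differed from the lowest untreated library by less than the spread within either group. The log2 fold change was −0.24 (SE 0.113, 95% interval −0.48 to −0.002), with an unadjusted p of 0.0482 and an adjusted p of 0.837 in edgeR. Leaving out 1 library at a time gave −0.33 to −0.17 and adjusted p-values of 0.356 to 1.0. For TALE against untreated the value was −0.05 (SE 0.113), and TALE against dCas9 gave 0.19 (SE 0.113, adjusted p 0.822).

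**Figure D2:**
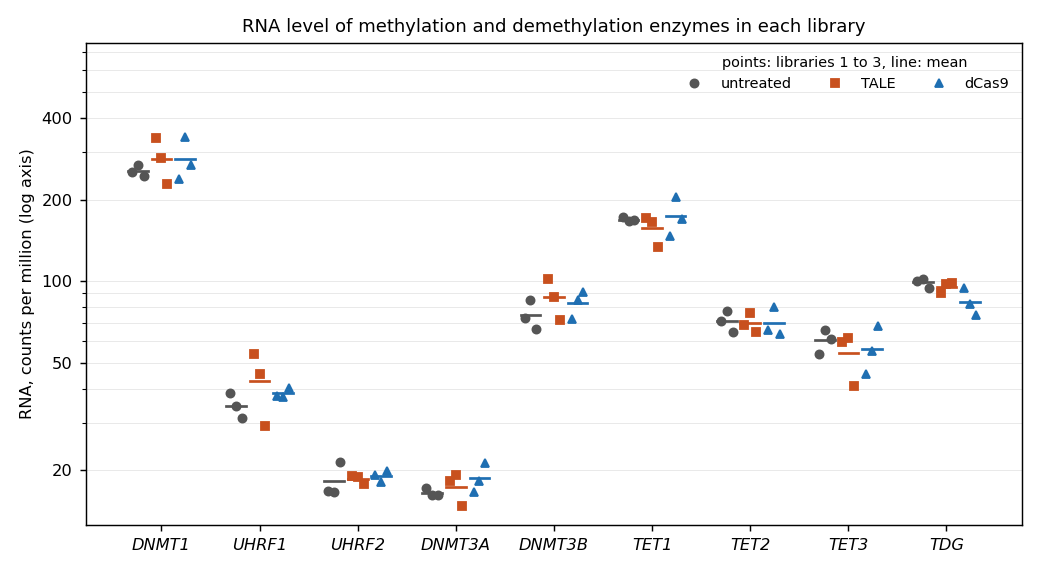
RNA of the 9 tested genes in each library, in CPM on a log axis, with points for the 3 libraries of a group and a line for their mean. TALE library 3 is the lowest of its group for every gene shown but TDG, and the 3 dCas9 points of TDG lie below its untreated points.

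TALE library 3 was the lowest of its group for 8 of the 9 tested members, all but TDG, for which it was the highest. It was the lowest for 39.2% of all tested genes. Genes that work with these enzymes went both ways. USP7 had 307, 233 and 186 CPM in TALE libraries 1 to 3 and SETD2 233, 201 and 164, while PCNA had 121, 121 and 148. Some members moved together over the 9 libraries, so the 8 are not separate observations. The Pearson r of log2 CPM was 0.79 for DNMT1 with DNMT3B, and −0.05 for DNMT1 with UHRF2. TALE libraries 1 and 2 lay above every untreated library for DNMT1, UHRF1, DNMT3A and DNMT3B. UHRF2, TET1, TET2, TET3 and TDG had no TALE library above every untreated one. How many of all tested genes share this pattern was not counted. It is thus given without a background and is not read as a trait of these genes. In the dCas9 group 5 of the 9 members were lowest in library 1, 2 in library 2 and 2 in library 3. Of all tested genes 32.5%, 34.5% and 33.0% were lowest in these libraries. Over the 9 libraries the coefficient of variation was widest for UHRF1 (19.2%), TET3 (16.0%) and DNMT1 (14.9%) and narrowest for UHRF2 (7.97%), TET2 (8.77%) and TDG (9.53%).

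No RNA difference between TALE and dCas9 cells passed the test for a member. The 9 log2 fold changes of TALE against dCas9 ran from −0.15 (TET1) to 0.19 (TDG), with adjusted p-values in edgeR of 0.822 to 0.999. For DNMT1 it was 0.002 (SE 0.153), a value whose sign turned under other scalings. Across the 18 comparisons with untreated cells, the 95% intervals stayed within 0.711-fold (TET3, TALE) to 1.57-fold (UHRF1, TALE), and within 0.718-fold (TDG) to 1.42-fold (UHRF1) for dCas9 alone. These intervals are not adjusted for the number of genes. Changes beyond those bounds lie outside the intervals. The bounds are the outermost limits of all these intervals, not the smallest change that 3 libraries a group could show. Only the interval of TDG in dCas9 cells left out 0 (0.718-fold to 0.999-fold), and TDG did not pass the adjusted test.

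**Figure D3:**
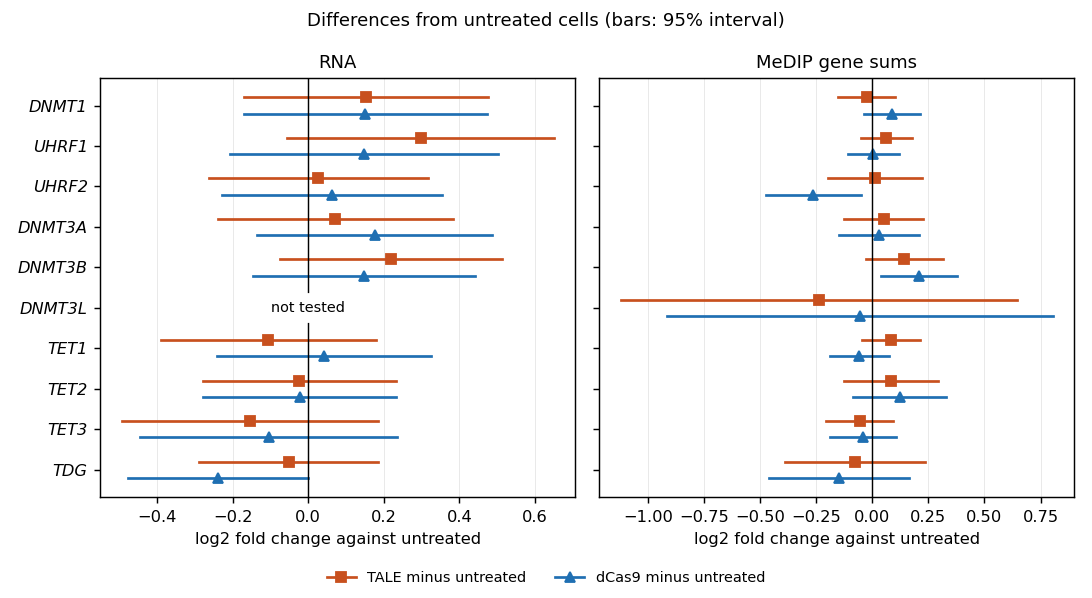
Log2 fold changes against untreated cells with 95% intervals, for RNA (left) and for MeDIP counts summed per gene (right), TALE as squares and dCas9 as triangles. In RNA only the interval of TDG in dCas9 ends short of 0 (at −0.002), and in MeDIP those of DNMT3B (0.04 to 0.38) and UHRF2 (−0.48 to −0.05) in dCas9 do, but no member passed the adjusted test.

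For each tested member, the gene among 8654 with a mean of at least 10 CPM whose log2 CPM followed it most closely over the 9 libraries was named, as a description of likeness. For DNMT1 this was CASP2 (Pearson r 0.983), for UHRF1 ARHGAP5 (0.976), for DNMT3A QRICH1 (0.967), for DNMT3B AEBP2 (0.991) and for TDG TPM1 (0.976). TET1 was closest to SETD2 (0.958), TET2 to NFE2L3 (0.892), TET3 to RNF157 (0.971) and UHRF2 to RASSF1 (0.914). Each is the best of 8654 candidates over 9 libraries that share groups and scaling. The gene at the 99th percentile already had r = 0.913 for DNMT1 and 0.874 for DNMT3B. That value was lowest for TET2 (0.681) and UHRF2 (0.591).

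Genes that work with these enzymes were taken from a list of 68, of which 60 passed the filter. Called in edgeR's test were 0 of 60 in each comparison, and 3, 2, 1 and 3 of 60 had an unadjusted p under 0.05, in the order TALE, dCas9, TALE minus dCas9 and both silenced groups together. Of all tested genes, 0.0218%, 0.0290%, 0.0% and 0.0363% were called in that order and 7.15%, 5.93%, 6.38% and 6.35% had such an unadjusted p, so the list was not above the background. The median log2 fold change of the 60 was 0.08 for TALE and 0.03 for dCas9 against untreated, beside 0.00 for all tested genes in each. The smallest p belonged to APOBEC3B, a cytidine deaminase, with 14.7 CPM in untreated, 19.4 in TALE and 21.4 in dCas9 cells. In dCas9 cells its log2 fold change was 0.54 (SE 0.145, adjusted p in edgeR 0.358), and in TALE cells 0.39 (SE 0.145, adjusted p 0.585). CDCA7L, placed in the list under maintenance cofactors, had 2.47 CPM in untreated and 3.92 in TALE cells (log2 fold change 0.65, SE 0.262, adjusted p 0.629). MAT2A, which makes the methyl donor S-adenosylmethionine, had 153 CPM in TALE and 123 in dCas9 cells (0.31, SE 0.126, adjusted p 0.745). By role, 0 of 10 methyl-CpG readers, 0 of 8 maintenance cofactors, 0 of 13 repair and deamination genes, 0 of 10 TET partners and oxoglutarate enzymes, 0 of 10 genes of the S-adenosylmethionine cycle and 0 of 9 other regulators were called in any comparison.

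The methylation signal over the genes themselves came from 193 of the 198884 MeDIP regions, those that overlap a member or the 2 kb upstream of it. TET3 (chr2:74212037-74335303) had 30, DNMT1 (chr19:10244018-10341962) 29, TET1 (chr10:70320094-70454244) 27, UHRF2 (chr9:6413151-6507054) 25, DNMT3A (chr2:25450724-25565459) and TET2 (chr4:106067032-106200973) 19 each. UHRF1 (chr19:4903092-4962165) had 17, DNMT3B (chr20:31350191-31397165) 16, TDG (chr12:104359600-104382652) 10 and DNMT3L (chr21:45666222-45682099) 1. Of the 193, 148 lay in introns of the main transcript, 34 touched an exon and 11 lay upstream of it. Of the last, 6 belong to DNMT1, whose annotated span reaches beyond the start of its main transcript. They lay 2308 to 32869 bases upstream of that start and count in the DNMT1 sums below. The regions held a median of 2.76 CpG per 100 bases, beside 2.81 for all regions.

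No region came within 1 kb of the start of the main transcript in any of the 10 genes. Of 20116 protein-coding genes, 3791 (18.8%) had such a region. For TET2 this depends on the start used, since its annotated span begins further upstream, at chr4:106067032. A region that ends at chr4:106066213 lies within 1 kb of that outer start. For 8 of the 10 members the nearest region was 1098 to 2080 bases away, with TET1 (1098), UHRF2 (1216) and TDG (1400) at the near end and DNMT1 (1963) and DNMT3B (2080) at the far end. DNMT3A and DNMT3L, the 2 members whose names appear in the effectors, had none within 11733 and 13231 bases. The share of protein-coding genes with a region within 1 kb was 12.5%, 23.5%, 21.8% and 17.2% in 4 classes of rising promoter CpG content, so an empty window was the more frequent state in every class. In the deposited peak lists, called per library, peaks reached into that window at UHRF2 and TET2 alone, each in 7 of 9 libraries, while 12.4% to 18.3% of protein-coding genes had such a peak in a library. The authors' −log10 q of these peaks was 0.478 to 2.95, and with a stricter −log10 q of at least 5 there were 0 members with such a peak in any library, beside 1.03% to 2.74% of protein-coding genes.

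**Figure D4:**
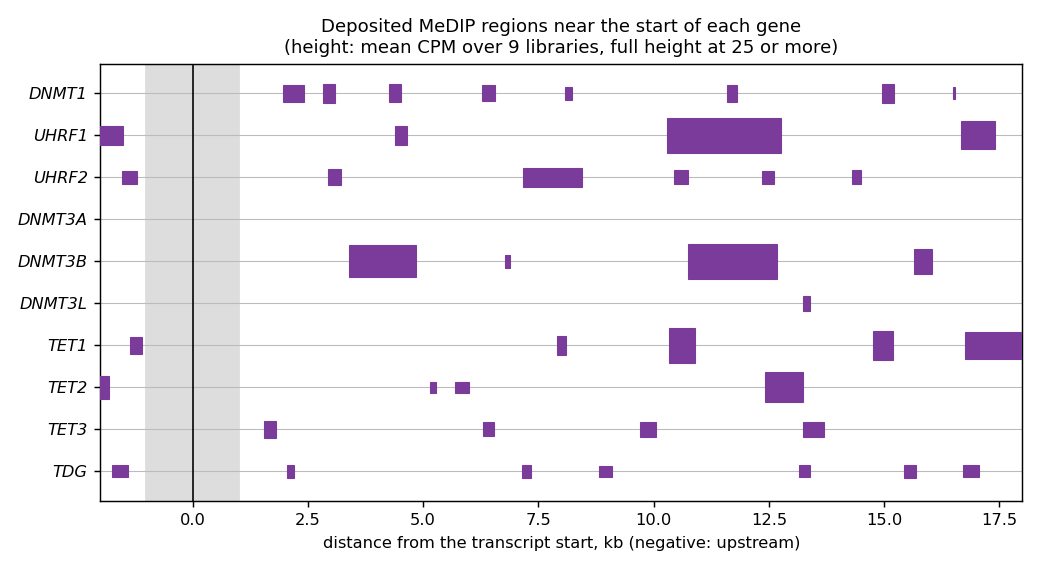
Deposited MeDIP regions from 2 kb upstream to 18 kb downstream of each main transcript start, drawn to scale, with box height for the mean CPM over 9 libraries. The grey band of 1 kb on either side of the start holds no region in any of the 10 genes.

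The region with the most counts in DNMT1 reaches over exons 14 to 17, and that in TET1 lies in intron 3. The letters TAATCCCAGC, typical of Alu repeats, were searched on both strands. This was the run of 10 letters shared by most of the members' highest regions, 9 of 10 when the whole region was searched. In the central 200 bases it occurred in 47 of 150 member regions of at least that length (31.3%). Of all such regions 47459 of 158253 held it there (30.0%), and 1748 of the 7913 in the top 5% by mean CPM (22.1%). Among the members' highest regions only that of TET1 held it there, and that of DNMT3L is shorter than 200 bases. The 9 of 10 is therefore not on the same measure as these shares. The run was picked from the members themselves, so the comparison is a description. The DNMT1 region had 73.1, 54.3 and 63.8 CPM in untreated, 87.8, 67.9 and 64.0 in TALE and 71.5, 70.1 and 67.8 in dCas9 libraries, and the groups overlapped. The TET1 region had 40.6, 50.5 and 43.6 CPM in untreated, 35.6, 64.8 and 51.4 in TALE and 36.4, 33.5 and 41.5 in dCas9 libraries. For TET1 the log2 fold change of TALE against dCas9 was 0.47, with an unadjusted p of 0.0042 and an adjusted p of 1.0 in edgeR.

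Of the 132 member regions that passed the filter, 0 were called in any comparison by edgeR's test over 105652 regions. Among all regions, the calls came to 0.0% in the TALE and 0.000947% in the dCas9 comparison with untreated, 0.000947% between the silenced groups and 0.0% for both together. Unadjusted p-values under 0.05 were found for 3, 5, 4 and 7 of the 132, or 2.27%, 3.79%, 3.03% and 5.30%, beside 4.74%, 4.69%, 4.47% and 4.88% of all regions. These shares were near the background. The smallest p in a member belonged to a region in intron 11 of DNMT1 (chr19:10275578-10275871), with 4, 8 and 8 counts in untreated, 11, 17 and 7 in TALE and 11, 34 and 18 in dCas9 libraries. All 3 dCas9 libraries were above all untreated ones, as in 5.21% of all regions, and the log2 fold change was 1.61 (SE 0.475, unadjusted p 0.00108, adjusted p 0.908). A region in intron 10 of TET3 (chr2:74321552-74322071) had 7, 6 and 12 counts in untreated and 19, 13 and 28 in TALE libraries (1.33, unadjusted p 0.00291, adjusted p 1.0). Both regions were picked for their p and carry few counts.

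Summed per gene, the MeDIP counts of the 10 members gave 0 calls of 10 in each comparison in edgeR. Among 23688 gene sums, calls came to 0.0% in the TALE and 0.00844% in the dCas9 comparison with untreated, 0.16% between the silenced groups and 0.0211% for both together. At an unadjusted p under 0.05 the members' counts were 0, 2, 2 and 1 of 10, beside 6.03%, 5.66%, 4.64% and 6.13% of all gene sums. DNMT3B had 86.0, 85.9 and 82.3 CPM in untreated libraries, 89.3, 87.3 and 101.7 in TALE and 101.4, 96.0 and 96.7 in dCas9 libraries. All 6 silenced libraries lay above the 3 untreated ones, which 1.41% of all gene sums also did (5.62% for the TALE and 5.57% for the dCas9 libraries taken alone). The log2 fold change was 0.18 for silenced (SE 0.0733, unadjusted p 0.0212, adjusted p 0.736), 0.14 for TALE and 0.21 for dCas9 (SE 0.0840, unadjusted p 0.0167, adjusted p 0.828). In RNA, as given above, the DNMT3B values of the groups overlapped.

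UHRF2 had 70.3, 71.5 and 65.8 CPM in untreated, 77.9, 72.0 and 61.5 in TALE and 63.9, 52.3 and 57.7 in dCas9 libraries. The 3 dCas9 libraries were below the 3 untreated ones, a pattern in 5.74% of all gene sums. The log2 fold change was −0.26 for dCas9 against untreated (SE 0.106, unadjusted p 0.0169, adjusted p in edgeR 0.828) and 0.28 for TALE against dCas9 (SE 0.107, unadjusted p 0.0133, adjusted p 0.996). DNMT1 had 318, 308 and 323 CPM in untreated, 319, 318 and 296 in TALE and 340, 326 and 344 in dCas9 libraries. Its dCas9 libraries were above those of both other groups, as in 5.57% of all gene sums against untreated and 5.17% against TALE. The log2 fold changes were 0.09 for dCas9 against untreated (SE 0.0619, adjusted p 0.926) and −0.11 for TALE against dCas9 (SE 0.0622, adjusted p 0.996). TET1 differed by 0.14 between TALE and dCas9 (SE 0.0648, unadjusted p 0.0342, adjusted p 0.996), with 293, 343 and 332 CPM in TALE and 288, 292 and 299.8 in dCas9 libraries. UHRF1 was 227 ± 1.22 CPM (SD, n = 3) in TALE and 218 ± 3.13 in dCas9 cells and did not overlap between them, as in 5.04% of all gene sums (log2 fold change 0.06, SE 0.0562, adjusted p 0.996), beside 218 ± 12.7 in untreated cells.

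The remaining members gave MeDIP sums whose groups overlapped in each comparison. DNMT3A stood at 83.6 ± 4.85 CPM in untreated, 85.7 ± 6.34 in TALE and 85.2 ± 2.34 in dCas9 cells (SD, n = 3), with log2 fold changes of 0.05 and 0.03. TET2 stood at 62.9 ± 4.96, 67.3 ± 4.73 and 68.4 ± 7.45 CPM, TET3 at 125 ± 7.08, 120 ± 8.23 and 121 ± 3.41, and TDG at 29.5 ± 3.99, 27.8 ± 2.49 and 26.4 ± 1.42. The single region of DNMT3L, in intron 11 (chr21:45668393-45668549), had 20, 6 and 21 counts in untreated, 11, 8 and 18 in TALE and 9, 22 and 13 in dCas9 libraries. Its log2 fold changes of −0.24 (SE 0.437) and −0.06 (SE 0.427) had the widest errors of the 10. The smallest adjusted p of any member's gene sum, over all settings tried, was 0.694 for DNMT3B.

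**Figure D5:**
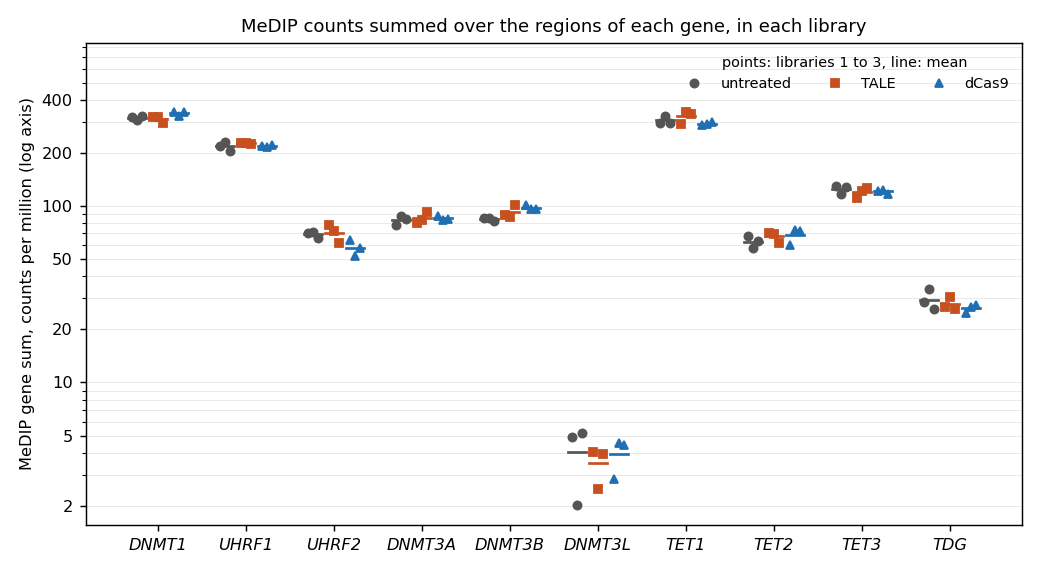
MeDIP counts summed over the regions of each gene, in CPM on a log axis, with points for the 3 libraries of a group and a line for their mean. The DNMT3B points of both silenced groups lie above the untreated ones, and the dCas9 points of UHRF2 lie below them.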

How the data were processed

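RNA-seq and MeDIP-seq of K562 cells were each measured in 3 groups of 3 libraries. The deposited gene table and the deposited MeDIP region table hold raw counts made by the authors. The authors' peak lists, 1 per MeDIP library, give a score, a fold enrichment (a ratio) and −log10 of p and q, read by the broadPeak layout. Per the submitters' processing notes, STAR 2.3.0 was named for RNA, BWA 0.7.5, Picard, MACS2 and bedtools for MeDIP, and hg19 as the build. The counter, annotation, use of strand and the rule that set the regions are not given in the sources used here. A kit for FFPE RNA amplified cDNA from total RNA, which was then sheared, and the antibody capture of MeDIP was done on a pool of adapter-ligated libraries, per the labels' protocols. The amplified counts are thus not independent molecules, and the Poisson intervals for DNMT3L cover counting error only.

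The test was edgeR's (version 4.0.16, R 4.3.3; glmQLFit and glmQLFTest, TMM factors, filterByExpr with a minimum of 10 counts) in 1 model of group means over the 9 libraries of an assay. A feature was called where p, adjusted by Benjamini-Hochberg over all tested features, was under 0.05. Silenced stands for the mean of TALE and dCas9. CPM are TMM-scaled. MeDIP counts were also summed per gene over regions that overlap its span or 2 kb upstream, with positions from GENCODE on GRCh37. Levels per kb use the main (canonical) transcript. Scripts were checked on simulated counts. Alternatives were DESeq2 1.42.0, RLE and upper-quartile factors, other filters, a replicate block, 5 kb upstream, stricter peaks and leaving out each library. No 2 replicates agreed within sampling noise. The 10 genes, the list of 68 partners and the markers were chosen with earlier results of these data known. All 10 members are named, with partners that had the smallest p in a comparison, and regions that were nearest the start, highest or of smallest p in a member. Of these, 1 partner and some sequences are not reported here.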

Additional observations from a re-analysis of the deposited data

How the results depend on the processing

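The counts of members, of partner genes and of MeDIP regions at members that passed the test were 0 in each comparison and stayed 0 under all 15 alternatives tried for each. Of 540 alternative values of the members' RNA log2 fold changes 499 kept their sign, and of 596 for MeDIP gene sums 569 did, while none crossed the threshold. Most sign changes came from leaving out 1 library, given below as ranges. Among the other settings they were 0.00844 for TET2 in TALE against untreated and 0.0188 for TET2 in TALE against dCas9, both in RNA without the filter on low counts. For DNMT1 in TALE against dCas9 RNA they were −0.000777 with RLE factors, −0.0242 with upper-quartile factors, −0.000792 with DESeq2 and −0.0104 with at least 10 counts in every library. The MeDIP sum of TDG in TALE against dCas9 was −0.00592 with 5 kb upstream in place of 2 kb.

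Samples with the same replicate number in the titles shared little deviation. Their deviations from group means correlated at −0.284 to 0.103 in RNA and −0.00475 to 0.00399 in MeDIP. These values cannot show whether samples with the same number were handled together. With the replicate number as a block, the RNA value of TET2 in TALE against dCas9 was 0.00142 and the MeDIP value of DNMT3L in dCas9 against untreated was 0.0224, both of the opposite sign. Under this block, for dCas9 against untreated 2 RNA genes, 0 MeDIP regions and 1 gene sum were called, and 1 gene sum for silenced.

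The counts over all features, the background for the members, moved more. For TALE against untreated, RNA calls were 9 with DESeq2, 74 without the filter and 1 with 10 counts in every library, against 3. For dCas9 they were 29, 89 and 2 against 4, for silenced 36, 79 and 3 against 5, and for TALE against dCas9 77 without the filter against 0. MeDIP regions called with 10 counts in every library were 1 for TALE and 0 for dCas9. With DESeq2 they were 0 for dCas9 and 0 for TALE against dCas9. Without the filter they were 2 (dCas9), 0 (TALE minus dCas9) and 1 (silenced). Gene sums called were 1 for dCas9 with 10 counts in every library. For TALE against dCas9 they were 0 with DESeq2 and 0 without the filter, against 38, of which 37 share 1 region, and for silenced 1 under each of these 2 settings, against 5. The members with a peak within 1 kb of the start in any library were 0 at a −log10 q of at least 5, against 2. The cause of these shifts was not tested.

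Leaving out 1 library at a time, RNA calls over all genes ranged from 2 to 16 (TALE), 2 to 10 (dCas9), 0 to 21 (TALE minus dCas9) and 2 to 33 (silenced). MeDIP regions ranged from 0 to 2, 0 to 3, 0 to 1 and 0 to 2, and gene sums from 0 to 37, 0 to 42, 0 to 38 and 0 to 45. The members whose log2 fold change changed sign had these ranges. In RNA for TALE against untreated they were UHRF2 −0.0313 to 0.152, DNMT3A −0.00666 to 0.179, TET2 −0.087 to 0.0427 and TET3 −0.261 to 0.0119. For dCas9 against untreated they were DNMT1 −0.0055 to 0.258, TET1 −0.095 to 0.151, TET2 −0.13 to 0.042 and TET3 −0.267 to 0.0291. For TALE against dCas9 they were DNMT1 −0.141 to 0.16, UHRF1 −0.0419 to 0.362, DNMT3A −0.182 to 0.00377, DNMT3B −0.0561 to 0.193, TET2 −0.0685 to 0.107 and TET3 −0.182 to 0.117. For silenced they were UHRF2 −0.0145 to 0.168, TET1 −0.0998 to 0.023 and TET2 −0.0868 to 0.0423. In MeDIP for TALE against untreated they were DNMT1 −0.0452 to 0.0104, UHRF2 −0.0612 to 0.115, DNMT3A −0.0196 to 0.0889 and TDG −0.163 to 0.0227. For dCas9 they were UHRF1 −0.0409 to 0.0428, DNMT3A −0.0165 to 0.0653 and DNMT3L −0.335 to 0.151. For TALE against dCas9 they were DNMT3A −0.0492 to 0.0593, TET2 −0.121 to 0.0269, TET3 −0.0654 to 0.0309 and TDG −0.00616 to 0.121. For silenced they were UHRF1 −0.012 to 0.0722, DNMT3A −0.00656 to 0.0757, DNMT3L −0.427 to 0.059 and TET1 −0.0119 to 0.0575. Depth limits DNMT3L most, with 6 RNA counts in all 9 libraries and 1 MeDIP region.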
